A study of Mus musculus with 2 samples.

Results

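The MYC family is the group of transcription factors built around MAX, and 9 of its genes are described here, Myc, Mycn, Mycl, Max, Mxd1, Mxd3, Mxd4, Mnt and Mga. Their members were found as the probe sets that the array annotation names to one of these genes alone. All 9 genes were measured, by 19 of the 15273 probe sets that carry a single gene name and as 9 of the 10313 genes these represent. RNA was hybridised to 2 Affymetrix arrays that read the 3' end of transcripts. The first array came from mouse embryonic stem cells that overexpress lincU, a long noncoding RNA, and the second from control cells. Both cultures were of line 46C, an embryonic stem cell line with a green fluorescent protein reporter at the neural gene Sox1, and both were grown in medium holding 15% serum and leukaemia inhibitory factor at 1000 U/ml on feeder cells that were taken away before RNA was harvested. How lincU was overexpressed, and whether the overexpressing line was 1 clone, is not stated in the labels. No probe set is named lincU, so its level was not measured. Each group had 1 array, so no difference has a replicate check and none was tested, and each value describes these arrays.

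MYC, N-MYC and L-MYC, the products of Myc, Mycn and Mycl, bind DNA as dimers with MAX at E-boxes, whose preferred letters are CACGTG, and raise the output of genes for growth, ribosome assembly and metabolism. The MXD proteins, MNT and MGA dimerise with the same partner, and so compete for it, and they lower transcription through SIN3 or, for MGA, through a non-canonical Polycomb complex. In mouse embryonic stem cells MYC and N-MYC overlap in function and help to keep self-renewal, MYC lies downstream of leukaemia inhibitory factor and STAT3, and MGA and MAX help to keep meiotic and other germline genes silent. The comparison asks whether this network differs in its transcripts when lincU is raised, in a study about naive pluripotency and ERK activity.

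The promoters below show the letters that the network reads in genes on which the values turn. They are the 250 bases before the start of each gene in RefSeq on build GRCm38.p6, written 5' to 3', and capitals mark the E-box CACGTG, which reads the same on both strands. Mycn is shown because it is the family gene with the largest difference among those bright enough to compare, and its window, chr12:12941837-12942086 on the minus strand, holds no such E-box. Mnt is a family gene with 1 E-box, in chr11:74830674-74830923 on the plus strand. Cdk4, a classic MYC target that encodes a cell cycle kinase, has 4 of them, in chr10:127063285-127063534 on the plus strand. Stk31 and Ddx4 are germline genes with 1 E-box each, in chr6:49395289-49395538 on the plus strand and chr13:112652311-112652560 on the minus strand, and their values on the arrays are unlike.
Mycn: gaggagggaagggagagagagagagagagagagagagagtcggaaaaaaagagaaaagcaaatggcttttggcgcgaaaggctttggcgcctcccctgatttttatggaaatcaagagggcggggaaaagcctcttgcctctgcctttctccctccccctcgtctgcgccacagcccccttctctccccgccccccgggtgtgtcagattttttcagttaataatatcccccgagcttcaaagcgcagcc
Mnt: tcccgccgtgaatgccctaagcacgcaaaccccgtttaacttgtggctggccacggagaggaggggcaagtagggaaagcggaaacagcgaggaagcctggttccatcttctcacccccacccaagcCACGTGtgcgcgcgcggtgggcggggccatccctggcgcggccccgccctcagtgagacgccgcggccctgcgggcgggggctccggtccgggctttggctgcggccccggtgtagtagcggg
Cdk4: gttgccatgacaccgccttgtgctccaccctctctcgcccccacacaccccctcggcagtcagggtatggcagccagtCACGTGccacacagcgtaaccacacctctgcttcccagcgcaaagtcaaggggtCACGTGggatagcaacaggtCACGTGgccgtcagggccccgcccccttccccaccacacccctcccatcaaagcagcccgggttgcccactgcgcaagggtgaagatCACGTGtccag
Stk31: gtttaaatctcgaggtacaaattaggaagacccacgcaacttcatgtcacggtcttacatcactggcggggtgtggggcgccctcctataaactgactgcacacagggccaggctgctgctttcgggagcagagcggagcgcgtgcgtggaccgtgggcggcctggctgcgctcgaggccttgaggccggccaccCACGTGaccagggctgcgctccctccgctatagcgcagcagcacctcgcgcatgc
Ddx4: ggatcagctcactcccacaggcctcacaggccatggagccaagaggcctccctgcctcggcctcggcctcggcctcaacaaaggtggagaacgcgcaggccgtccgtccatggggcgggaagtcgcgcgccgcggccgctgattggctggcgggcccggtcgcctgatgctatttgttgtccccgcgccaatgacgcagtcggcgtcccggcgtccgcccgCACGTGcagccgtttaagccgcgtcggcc

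Of the 32851 promoter windows in the RefSeq table, each of 250 bases before and 50 after a start, 7.15% held CACGTG, and of the 4635 bright genes with a window 13.1% did. Among 8 family genes with a window, Max, Mnt and Mxd4 held it, at 3, 123 and 219 bases before the start, and Mycn, Mycl, Mxd1, Mxd3 and Mga did not. Myc has no window in the table. A match describes letters and shows no binding.

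The values are log2 signals as deposited. Signals under the 25th percentile of an array, 5.65 in overexpressing and 5.73 in control cells, were raised to it as a floor. A probe set is called bright where the array with the higher signal reached its own median, 7.90 or 7.96, and dim otherwise. A gene with several probe sets is represented by the one of highest mean signal. Signals of different probe sets depend on their probes, so the levels of Myc, Mycn and Mycl cannot be ranked from these arrays, and each difference below stays within a probe set. The probe sets of 1732 genes with several bright ones give the only repeated measurement: the SD of their log2 differences within a gene was 0.23. This SD holds no variation between cultures.

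Mycn had the largest difference of the 6 bright family genes, and its 3 probe sets all read lower in the overexpressing cells. The brightest Mycn probe set had a log2 signal of 12.32 in overexpressing cells, against 12.86 in control cells. That is a log2 difference of -0.53, or 1.45-fold lower, just inside the 1.5-fold limit of 0.58 used here. The second Mycn probe set read 8.74 in overexpressing and 9.51 in control cells, a log2 difference of -0.77. The third, which is dim on both arrays, read 6.01 in overexpressing and 6.82 in control cells, a difference of -0.82. The dimmer probe sets therefore gave larger differences than the brightest one, and 2 of the 3 were past 1.5-fold. Averaged over its probe sets, Mycn differed by -0.71, past that limit.

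Differences of this size were also seen in other genes. Of the 5609 bright genes, 451, or 8.04%, were at least as low as Mycn on its brightest probe set. Of 678 genes with at least 3 probe sets above the floor on both arrays, 16, or 2.36%, had all of them at -0.5 or lower, Mycn among them, and 14, or 2.06%, had all of them at 0.5 or higher. The -0.5 limit was chosen after the Mycn values were seen, so these shares are a description.

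Myc itself did not separate between the arrays. Its only probe set, of the type that matches alternative transcripts of 1 gene, had a log2 signal of 10.65 in overexpressing cells and 10.67 in control cells, a difference of -0.01. The difference of Mycn minus that of Myc was -0.52 on the brightest Mycn probe set, and -0.76 and -0.80 on the others. So the signal of Mycn relative to that of Myc was lower in the overexpressing cells on each Mycn probe set, while which paralogue was the more abundant was not measured. Pvt1, the noncoding RNA gene next to Myc, had a dim signal of 7.30 in overexpressing and 7.66 in control cells, a difference of -0.35.

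Mycl lay at the limit of what the arrays compare. Its brightest probe set read 7.92 in overexpressing and 7.67 in control cells, so it passed as bright through the overexpressing cells alone, where the median was 7.90. The log2 difference was 0.24. A second probe set read 6.57 in overexpressing cells and was under the floor in control cells, at 5.62, which bounds it as at least 1.79-fold higher. The third went the other way, at 5.51 and so under the floor in overexpressing cells, and at 6.01 in control cells. The 3 probe sets of Mycl therefore gave no common direction.

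Max, which encodes the shared partner, had 1 probe set, with a log2 signal of 10.51 in overexpressing and 10.58 in control cells and a difference of -0.07. That is 1.05-fold and smaller than the SD within genes. The transcript of this shared partner thus read nearly the same on both arrays.

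**Figure D1:**
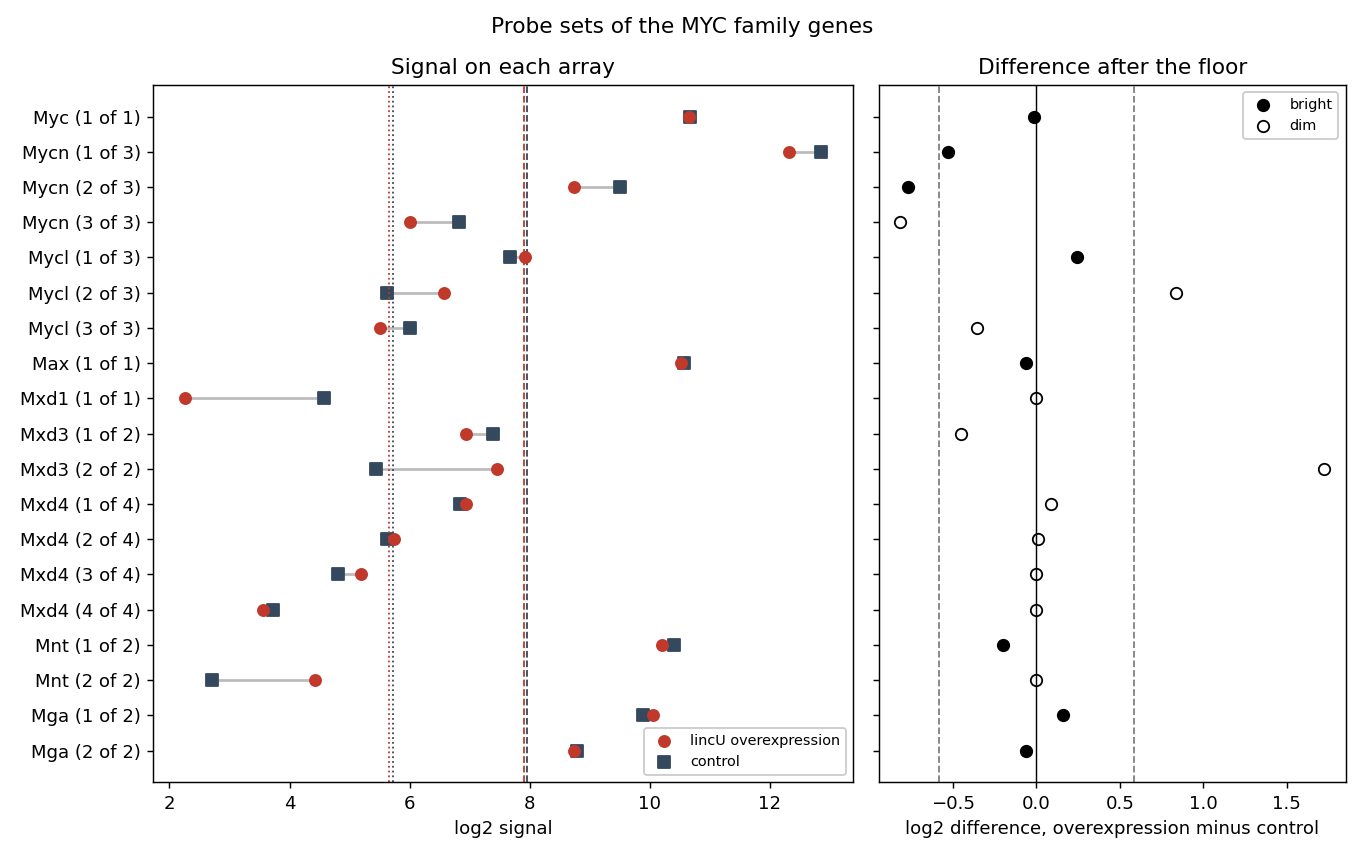
Each row is 1 probe set of a MYC family gene. Left, log2 signal in lincU-overexpressing (circles) and control cells (squares), with the floor (dotted) and the median (dashed) of each array. Right, log2 difference, overexpression minus control, after the floor, filled for bright and open for dim probe sets, with dashed lines at 1.5-fold. The 3 Mycn probe sets lie at -0.53, -0.77 and -0.82, and Myc and Max lie near 0.

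Of the antagonists, Mnt and Mga were bright and the MXD genes were dim. Mnt, which encodes a broadly expressed repressor that pairs with MAX, read 10.21 in overexpressing and 10.41 in control cells on its bright probe set, a difference of -0.20. Its other probe set lay below the floor on each array. Mga, which encodes the large repressor of germline genes, read 10.05 in overexpressing and 9.89 in control cells on 1 probe set, a difference of 0.16. On its other bright probe set it read 8.73 in overexpressing and 8.80 in control cells, a difference of -0.06. Both differences of Mga, and that of Mnt, were smaller than the SD of 0.23 between probe sets, and those of Mga had opposite signs.

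Mxd1 and Mxd4 encode antagonists that are linked to cells leaving the cycle to differentiate, and Mxd3 one that is found in proliferating progenitors. On both arrays Mxd1 lay below the floor, at 2.26 in overexpressing and 4.57 in control cells, so no difference can be read from it. Mxd3 had 2 dim probe sets that disagreed. On the one of higher mean it read 6.94 in overexpressing and 7.39 in control cells, a difference of -0.45. On the other it read 7.46 in overexpressing cells and was under the floor in control cells, at 5.43, which bounds it as at least 3.31-fold higher. With the probe sets averaged Mxd3 stood at 0.64, so its direction depends on the probe set. Of the 4704 dim genes, 16.2% differed by at least 1.5-fold in one direction or the other, so such a difference in a dim gene is common here. Mxd4 had 4 dim probe sets. The first read 6.93 in overexpressing and 6.85 in control cells, a difference of 0.09, the second lay at the floor and the others under it on both arrays.

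Counted by gene, none of the 6 bright family genes was at least 1.5-fold higher and none at least 1.5-fold lower. Over all bright genes those shares were 4.65% and 6.69%, so 0 of 6 is near the background. With each array centred on its own median the shares over all bright genes were 5.7% higher and 5.38% lower. Of the bright family genes, 4 differed by less than the SD between probe sets, namely Myc, Max, Mnt and Mga. The family median over all 9 genes was -0.01, against 0.00 over all genes. No family gene lay in the stretches of chromosomes 14 and 6 that hold many of the genes past 1.5-fold on these arrays. These run from Abhd6 to Ghitm and from Tspan14 to Tmtc4 on chromosome 14, and from Rad18 to Resf1 on chromosome 6. Without them the bright genes went from 5609 to 5305. Those at least 1.5-fold higher went from 261 to 177 and those at least 1.5-fold lower from 375 to 303. Mycn and Max lie on chromosome 12, Myc on 15, Mycl on 4, Mnt on 11 and Mga on 2.

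**Figure D2:**
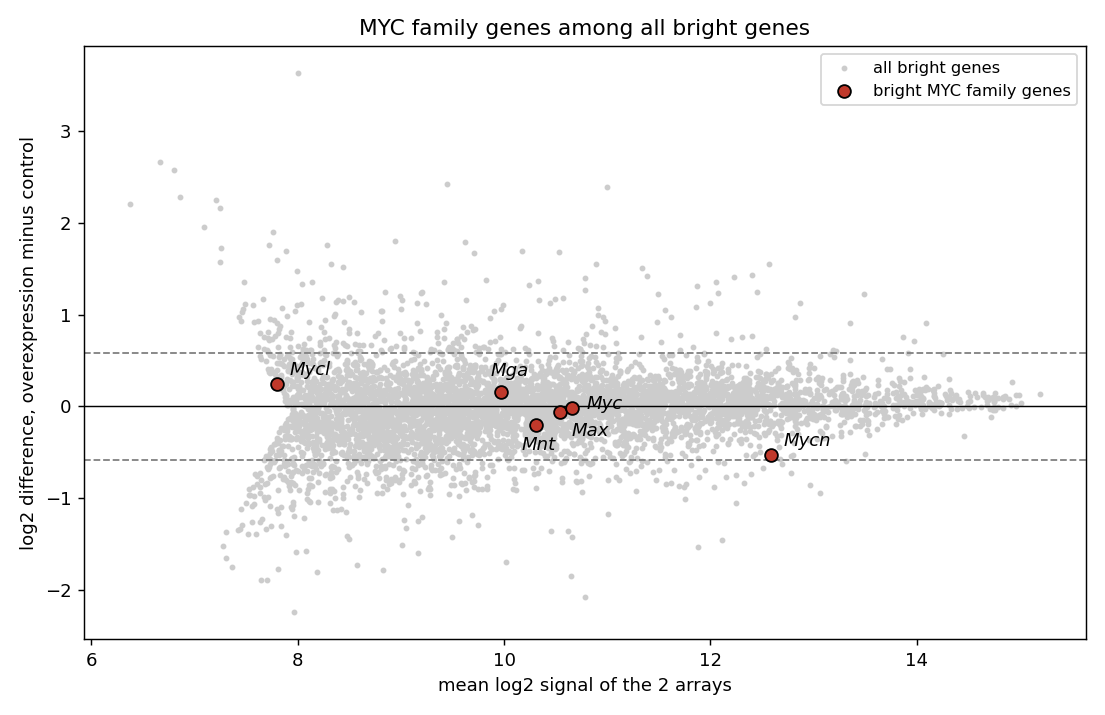
Log2 difference, overexpression minus control, against the mean log2 signal of both arrays for the 5609 bright genes (grey) and the 6 bright MYC family genes (red), with dashed lines at 1.5-fold. Mycn, at -0.53, lies close to the lower line, and Myc, Max, Mnt and Mga lie within the bulk of genes of like signal.

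The embryonic stem cell and feeder markers were read to check what the cultures held. The stem cell factor gene Pou5f1 read 13.34 in overexpressing and 13.55 in control cells and Sox2 read 13.59 in overexpressing and 13.41 in control cells. Of 10 stem cell markers 9 were measured and bright, with a median difference of 0.18 and a range of -0.53 to 0.65. Of these, 5 lay above 0 and 4 below. Nanog, at 0.57, lies in the chromosome 6 stretch, and the median of the 8 other bright markers was 0.08. Esrrb was past 1.5-fold higher on 1 of its bright probe sets, at 0.65, and 0.17 on the other, while Utf1 stood at -0.43 and both probe sets of Lin28a were lower, with differences of -0.53 and -1.45. Of 17 feeder fibroblast markers 14 were measured and 11 bright, where 5609 of all 10313 genes were bright. Lum, Pdgfra and Twist1 were dim. Which cells the transcripts of the bright markers came from was not measured. The 11 bright ones had a median difference of -0.04 and lay between -0.46 and 0.69, with Col3a1 at 10.27 in overexpressing and 10.31 in control cells and Col1a1 at 8.19 on both arrays. If RNA of several cell types was present, fewer cells of a type and less RNA per cell cannot be told apart. The part of feeder RNA in the MYC family values was not tested. Pdgfrb, at 0.69, was the only bright fibroblast marker past 1.5-fold, and its dim probe set went the other way.

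Beyond the 9 family genes, the network has a second hub, MLX, with partners that sense glucose, and a further MXD-type antagonist, MXI1. Mxi1 had the largest difference of this group, with a log2 signal of 8.20 in overexpressing and 7.40 in control cells and a difference of 0.80 on its only probe set. It was bright through the overexpressing cells alone. Mlx, bright on 2 probe sets of near-equal mean signal, differed by -0.28 on one and by 0.27 on the other. Mlxip, whose product MondoA pairs with MLX, read 8.52 in overexpressing and 8.86 in control cells, a difference of -0.34. Mlxipl, which encodes ChREBP, was dim, at 7.26 in overexpressing and 7.38 in control cells.

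Of 16 genes for MYC coactivators, 14 were measured and bright and none was past 1.5-fold in either direction, with a median of 0.05. Past 1.5-fold were 4.65% of all bright genes on the higher side and 6.69% on the lower side, so a count of 0 in a list of this size, or of the smaller lists that follow, is near the background and sets none of them apart. The largest difference was in Wdr5, which encodes a chromatin adaptor that binds MYC. Wdr5 read 12.11 in overexpressing and 11.62 in control cells on 1 probe set, a difference of 0.50, and its second bright probe set gave the same 0.50. Ccnt1, a cyclin of the elongation kinase complex, stood at 0.46 and Trrap, the acetyltransferase scaffold that MYC recruits, at 0.45.

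The corepressor genes through which MXD proteins and MNT act had 7 of 11 members measured, all bright, and none past 1.5-fold. Sin3b, which encodes one of the paired SIN3 scaffolds, differed by -0.37 and -0.31 on its bright probe sets, and Sap30 by 0.26. Genes for MYC protein turnover had 11 of 15 members measured and 9 bright, none past 1.5-fold. Axin1, a scaffold in MYC degradation, differed by -0.40 on its bright probe set and by 0.09 on a dim one. The ubiquitin ligase gene Trim32 differed by -0.37. Fbxw7, which encodes the ligase that recognises phosphorylated MYC, lay at -0.02. Transcripts say nothing of MYC protein levels, which ERK and GSK3 also set through phosphorylation.

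Regulators of Myc transcription had all 9 members measured and 8 bright, with none past 1.5-fold and a median of -0.07. Lef1, a WNT-responsive factor, read 7.60 in overexpressing and 8.13 in control cells, a difference of -0.53, and was bright through the control array alone. Tcf7l1, a repressor of WNT target genes in stem cells, differed by -0.43. Stat3, which encodes the factor downstream of leukaemia inhibitory factor, read 10.38 in overexpressing and 10.63 in control cells on its bright probe set, a difference of -0.25.

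Genes that MYC and N-MYC are known to raise had median differences close to the 0.00 of all bright genes, and their counts past 1.5-fold on the higher side lay near the background of 4.65%. Of 32 genes for nucleolar and ribosome assembly factors, 26 were measured and all of these were bright. Their median difference was 0.07, 1 was at least 1.5-fold higher and none at least 1.5-fold lower. Ncl, which encodes nucleolin, read 14.75 on both arrays, with its 3 probe sets between -0.04 and 0.11. Npm1, which encodes nucleophosmin, read 14.78 in overexpressing and 14.72 in control cells, a difference of 0.06.

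Of 36 gene names for metabolism, growth and the cell cycle, 29 were measured and 28 bright. Their median over measured genes was 0.04, with 2 of the bright ones at least 1.5-fold higher and none at least 1.5-fold lower, where 6.69% of all bright genes were. Over both lists the higher count was 3 of 54. Odc1, which encodes the rate-limiting enzyme of polyamine synthesis, read 14.14 in overexpressing and 14.16 in control cells, a difference of -0.02. Cdk4, whose promoter with 4 E-boxes is printed above, lay between -0.07 and 0.09 on its 3 probe sets. Tfap4, a transcription factor gene induced by MYC, had the lowest value of both target lists, at -0.53.

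By the probe set of highest mean signal, the target genes past 1.5-fold were Gnl3, Ccnd2 and Phb2, all in the chromosomal stretches. Gnl3, which encodes nucleostemin, read 14.24 in overexpressing and 13.48 in control cells and lies in the chromosome 14 stretch from Abhd6 to Ghitm. Ccnd2, which encodes cyclin D2, read 12.09 in overexpressing and 11.31 in control cells, a difference of 0.78, with all 6 of its probe sets between 0.73 and 1.27. Phb2, which encodes a prohibitin, differed by 0.61 and 0.53, and Ccnd2 and Phb2 both lie in the chromosome 6 stretch. Without the genes of the stretches, 49 bright genes of both target lists remained, with a median of 0.04 and, by the same probe sets, none past 1.5-fold in either direction. Other probe sets outside the stretches were past it. Nme1, which encodes a nucleoside diphosphate kinase, differed by 0.06 on its first probe set and by 1.30 on a second bright one of the _x_at type, and Shmt1, a gene of folate metabolism, by 0.60 on 1 of its 4 bright probe sets. With probe sets averaged Nme1 stood at 0.68, past 1.5-fold, and Phb2 at 0.57, no longer past it.

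Above 0 lay 38 of the 54 bright target genes of both lists, and 50.2% of all bright genes. In 43 of the 54 the difference was smaller than the SD of 0.23 between probe sets, so no direction is read from the sign. That is a larger share than the 58% of all bright genes, which were not matched to the targets in signal. With brightness at the 75th percentile, 3.32% of bright genes were at least 1.5-fold higher and 3.36% lower. With the main rule these shares were 4.65% and 6.69%. The E-box was present in 12 of the 44 measured target genes with a promoter window, or 27.3%. The 12 had a median difference of 0.04 and lay between -0.20 and 0.42, and the 32 bright ones without it also had a median of 0.04 and lay between -0.36 and 0.76.

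Genes that MYC is known to lower had 8 of 11 members measured and 5 bright. All 5 lay below 0, against 49.8% of all bright genes, and Clu was past 1.5-fold. Those of Cdkn1a and Ndrg2 were smaller than the SD of 0.23 between probe sets, and no direction is read from the sign. Clu, which encodes the secreted chaperone clusterin, read 8.99 in overexpressing and 9.94 in control cells, a difference of -0.95, and lies in the stretch from Tspan14 to Tmtc4. Cdkn1a, the p21 gene that MYC represses with the factor encoded by Zbtb17, read 10.63 in overexpressing and 10.75 in control cells, a difference of -0.12. The endoderm factor gene Gata6 was dim, at 6.92 in overexpressing and 6.39 in control cells, and its probe sets went opposite ways. The other dim genes were Cebpa, at -0.44, and Ndrg1, at 0.32 and 0.03 on its probe sets. Cdkn2b was not measured. Cdkn1b, at -0.49, lies in the chromosome 6 stretch, where Ccnd2 and Phb2 were higher, and Ndrg2, at -0.14, in a stretch of chromosome 14. Without the stretches 2 bright genes were left, Cdkn1a and Cdkn1c, the latter at -0.34, with none past 1.5-fold.

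**Figure D3:**
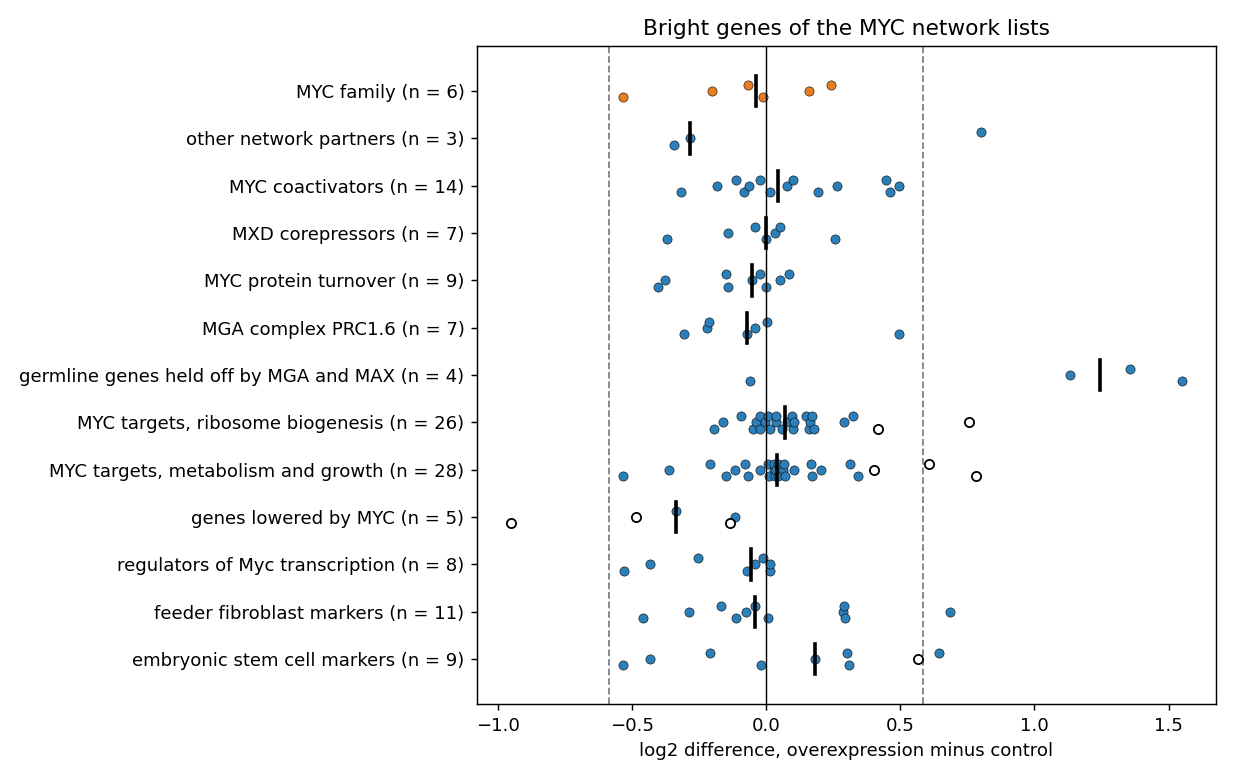
Log2 difference, overexpression minus control, of the bright genes of each list, 1 point per gene, with the median as a bar, dashed lines at 1.5-fold, and open points for genes in the chromosome 14 and 6 stretches. The MYC target lists crowd around medians of 0.07 and 0.04, and their points past 1.5-fold, by the probe set of highest mean signal, are open. In the germline list Stk31, Stra8 and Dazl lie beyond 1 and Ddx4 near 0.

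The complex that MGA and MAX form on germline genes also contains PCGF6, L3MBTL2, E2F6 and RING proteins. Of 12 genes for such subunits, 8 were measured and 7 bright, with none of the bright ones past 1.5-fold. E2f6, L3mbtl2, Rybp and Hdac2 were not measured. Pcgf6 differed by 0.00 on its bright probe set. Wdr5, also counted among the coactivators, stood at 0.50, and Yaf2, which encodes a RING-binding protein, at -0.30 and -0.10 on its 2 bright probe sets.

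Germline genes that this complex helps to silence had only 9 of 20 members measured and 4 bright. The median difference of the 9 was 0.51. The 5 dim ones were Tex11 at 1.58, Taf7l at 0.51, Sycp1 at 0.46, Mov10l1 at 0.03 and Tdrd1, under the floor on both arrays. Of all dim genes, 16.2% differed by at least 1.5-fold in one direction or the other. Stra8, a gate to meiosis, read 10.10 in overexpressing and 8.74 in control cells, a log2 difference of 1.36. Dazl, a gene for an RNA-binding protein of germ cells, read 9.11 in overexpressing and 7.98 in control cells, a difference of 1.13. Stk31, which encodes a testis kinase, read 9.10 in overexpressing and 7.55 in control cells, a difference of 1.55. Stra8 and Dazl were bright on both arrays, Dazl only just in control cells, at 7.98 against a median of 7.96. Stk31 was bright through the overexpressing cells alone, and its probe set is of a type (_x_at) that may also pick up related transcripts. Past 2-fold were 1.53% of all bright genes on the higher side and 1.3% on the lower side.

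Ddx4, which encodes the germ cell helicase VASA, did not share this difference, at 9.55 in overexpressing and 9.61 in control cells. Stk31 and Ddx4 held the E-box, at 55 and 29 bases before the start in the printed windows, and Stra8 and Dazl did not. Of the 8 measured members with a window 6, or 75%, held it, against 10.8% of all measured genes with a window. Whether the E-box bears on these differences was not tested, and sites outside the windows were not read. As Mga and Max differed by 0.16 or less on these arrays, the values of these germline genes are given beside them with no link tested.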

How the data were processed

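Total RNA of both cultures was amplified and labelled with biotin for 3' expression arrays, per the labels' protocols. The authors deposited 1 signal for each probe set on each array. Their range, which ends at 15.26 in overexpressing and 15.13 in control cells, shows the deposited signals to be on a log2 scale. MAS5 and affy are named, without role or version, per the submitters' processing notes. No source used here gives the scaling target. The table held 16994 probe sets, of which 501 with several gene names, 1156 with none and 64 control probe sets were left out. Symbols were updated through gene IDs with RefSeq genes of assembly GRCm38.p6, which matched 15252 of 15273 probe sets.

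Differences were computed as overexpression minus control with no further scaling (Python 3.11.15, pandas 2.3.3, numpy 2.4.6). Probe sets under the floor on both arrays were given a difference of 0. The members and the 12 other gene lists were chosen with earlier results of these data known. Besides the family genes, the text names of each list the bright genes past 1.5-fold, up to 5 in each direction, or else the 2 of largest difference, and a few fixed genes. Pvt1, Mlx, Mlxip, Mlxipl, Trrap, Fbxw7, Stat3, Tfap4, Nme1, Shmt1, Pou5f1, Sox2, Nanog, Lin28a, Utf1, Pcgf6, Cdkn1b, Cdkn1c and Ndrg2 fall outside this rule and were chosen after their values were seen. Also outside it are Lum, Pdgfra, Twist1, Cebpa, Ndrg1 and the dim germline genes, named as the dim members of their lists. The subunit genes of the MGA complex that were not measured are named as such. With 1 array per group nothing was tested, and precision is limited by this number of arrays. The counting rules were run on simulated data, in which bright genes were given changes larger than the 1.5-fold limit. The noise was set to the SD of 0.23 between probe sets and held no variation between cultures. That run checks the code and not the precision of the values. Alternatives covered centring, quantile normalization, a loess trend, the floor, a pseudocount, the brightness rule, averaging and type of probe sets, and a 2-fold threshold.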

Additional observations from a re-analysis of the deposited data

How the results depend on the processing

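No paired analysis was possible because each group has 1 array. Over the alternatives Mycn lay between -0.71 and -0.48, Myc between -0.02 and 0.04, Max between -0.08 and -0.01, Mnt between -0.20 and -0.10, Mga between -0.06 and 0.21 and Mycl between 0.18 and 0.32. With no floor Mxd1 stood at -2.31 and with a pseudocount at -0.48, both from signals under the floor. With probe sets averaged Mxd3 stood at 0.64, and 1 family gene (Mycn) was past 1.5-fold lower. That setting also gave 2 lower among genes that MYC lowers, 0 higher among feeder markers, and 0 higher and 1 lower among stem cell markers. The 2 metabolism and growth targets then past 1.5-fold were Ccnd2 and Nme1 in place of Ccnd2 and Phb2. With centring 2 stem cell markers were higher. Under quantile normalization, and with the loess trend subtracted, 1 metabolism and growth target was higher, and with no brightness rule 2 feeder markers were. With brightness at the 75th percentile the counts were 0 for the MLX group, genes MYC lowers and feeder markers, and 1 for germline genes. When _s_at, _x_at and _a_at probe sets were left out, where Myc has none left, 1 metabolism and growth target was higher, and the counts were 0 for ribosome assembly targets, the MLX group, genes MYC lowers and feeder markers. At 2-fold the counts were 0 for both target lists, the MLX group, genes MYC lowers, feeder and stem cell markers. Without the genes of the chromosome 14 and 6 stretches, a setting chosen after seeing the data, the counts were 0 for both target lists and for genes MYC lowers. The fewer genes or probe sets left explain the last counts by construction, and other causes were not tested. Of the family's values 129 stayed within the SD of 0.23 or 1.5 times the main count and 4 did not, and of the lists' 394 did and 26 did not. Many of these values could not move, since the brightness and stretch settings leave each family difference as it is. A small change of sign counted as staying, as for Mga from 0.16 to -0.06. The tally is thus no measure of how firm the values are. Dim probe sets limit Mycl and the MXD genes.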
